A study of Homo sapiens with 402 samples.

Results

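The BCL2 family genes described here are 10 genes taken by name from a table of 34721 gene symbols: 3 that restrain cell death (BCL2L1, MCL1 and BCL2A1), 5 that encode BH3-only proteins (PMAIP1, BBC3, BCL2L11, BMF and BID) and 2 that encode the pore-forming effectors (BAX and BAK1). They were chosen by their family and not by any measured value. The cells were MCF10A, a human breast epithelial line that does not form tumours, labelled wild type and kept at passage 105. Cells in small wells received 1 of 21 chemicals at 0.025, 0.25, 2.5 or 25 µM for 48 h, with 4 wells per dose that the labels call biological replicates, and RNA from the lysates was sequenced with a plate-barcoded method. Arsenic, cadmium, copper, lead and mercury were set against 15 water controls on plate 3153-AT. BPA, BPF, BPS, MPB and PPB were set against 15 DMSO controls on plate 3206-AT, where MPB and PPB at 0.025 µM had 3 libraries each. PFDA, PFNA, PFOS and phenanthrene had 12 DMSO controls on plate 3240-AT, and PFOA, given in water, had 4 water controls there. DCB_14, DCP_25, PCB153, PCB187 and thiram had 15 DMSO controls on plate 3284-AT. DDE, labelled DMSO, was read on plate 2250-AT with 8 controls that carry this plate's barcode but are labelled water and plate 3153-AT, so solvent and DDE cannot be told apart there. Cadmium at 25 µM had 2 libraries on its plate, and 1 more carried the barcode of plate 3284-AT and was left out of the tests.

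The 402 libraries held 333 dosed and 69 control samples, with plate medians of 6.42 to 13.8 M (mega) counts. The 2 cadmium libraries at 25 µM held 1.43 and 1.45 M counts and the shallowest thiram library at 25 µM, replicate 4, held 2.46 M. On plates 3153-AT and 3284-AT the 7 controls with the higher replicate numbers were shallower, at medians of 3.17 and 3.18 M, than the 8 with the lower numbers, at 20.9 and 17.9 M. All 8 basal markers were present in the controls (KRT5 at 1060 to 4195 CPM, counts scaled by library size, by plate, and TP63 lowest at 2.82 to 14.005 CPM). Of the 6 luminal markers, the keratins KRT8 (379 to 455 CPM) and KRT18 (411 to 584) and the factors GATA3 (19.01 to 103) and FOXA1 (7.59 to 42.6) were present too, while the hormone receptors ESR1 (at most 0.43 CPM) and PGR (0 on the 4 plates that list it) were at or near 0. Of the stromal, blood and endothelial markers, COL1A1 reached 15.4 CPM and PECAM1 5.89 CPM, PDGFRB, CD68 and PTPRC reached at most 0.52, 0.14 and 0.026 CPM, and COL3A1 had no values here. In these bulk lysates fewer cells and less RNA per cell cannot be told apart.

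BCL2 family proteins decide whether the outer mitochondrial membrane stays closed. BCL2L1 (BCL-XL), MCL1 and BCL2A1 (BFL-1) bind and hold back the effectors BAX and BAK1, which otherwise form pores that release cytochrome c and start the caspases. BH3-only proteins such as PMAIP1 (NOXA), BBC3 (PUMA), BCL2L11 (BIM), BMF and BID either occupy the restraining proteins or activate the effectors, and several are controlled through transcription by p53, by the stress factors ATF4 and DDIT3, or by FOXO forkhead factors. NOXA binds MCL1 in preference to BCL-XL, and MCL1 protein is short-lived.

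Stretches before the RefSeq starts of PMAIP1, BBC3 and BCL2L11 are shown because these genes had the largest changes. They were read from RefSeq promoter windows (GRCh38.p14), which matched 9 of the 10 genes with 15 windows, and each runs up to the first base that is exonic in GENCODE release 29. The BCL2L11 stretch lies inside that gene's annotated span, in an intron of a transcript that starts farther upstream, and directly before an exon with which other transcripts start. All are 5′ to 3′ on the gene's strand. Capitals mark matches to the searched motifs other than the metal element.
PMAIP1, chr18:59899746-59899947, plus strand: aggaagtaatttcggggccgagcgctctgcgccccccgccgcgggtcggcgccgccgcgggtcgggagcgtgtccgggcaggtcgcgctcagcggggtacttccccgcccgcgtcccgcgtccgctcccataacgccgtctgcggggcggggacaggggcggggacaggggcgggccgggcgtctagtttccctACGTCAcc
BBC3, chr19:47232767-47232917, minus strand: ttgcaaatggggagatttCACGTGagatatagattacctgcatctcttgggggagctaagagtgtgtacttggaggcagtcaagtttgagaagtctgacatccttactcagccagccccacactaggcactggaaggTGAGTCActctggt
BCL2L11, chr2:111120664-111120913, plus strand: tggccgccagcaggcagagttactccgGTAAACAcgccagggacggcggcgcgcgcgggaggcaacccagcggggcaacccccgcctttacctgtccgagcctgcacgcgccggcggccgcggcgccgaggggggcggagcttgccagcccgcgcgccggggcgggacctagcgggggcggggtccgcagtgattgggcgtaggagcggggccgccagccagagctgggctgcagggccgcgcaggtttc
The capitals in PMAIP1 are ACGTCA, the core of the cAMP response element, which with its reverse complement was found in 7.1% of all 35116 windows of 250 bases before a RefSeq start. The complete element TGACGTCA was in 1.65% of the windows and in no window of these genes. BBC3 carried an E-box, CACGTG (6.34% of windows), which BAX and BID also had, and an AP-1 site, TGACTCA read on the other strand (4.2%). BCL2L11 carried the forkhead site GTAAACA (2.98%), which no other of the 9 genes had. TGATGCAA, an element for C/EBP and ATF dimers, was in 0.772% of windows and among these genes in BCL2A1 alone. BAX held a match to the antioxidant element TGACNNNGC (10.9%), where N is any base. The pattern TGCNCNC, a loose form of the metal element core, was found for BCL2L1, BCL2L11, BID and PMAIP1. This loose pattern was also in 49.1% of all windows. Both strands were searched. The first 2 bases of the BAX antioxidant match overlap an E-box. A match is a description of letters only.

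The levels of the 10 genes in the controls were compared as CPM per kilobase of exon. MCL1 was highest on every plate, with control means of 75.0 to 85.0 CPM per kb. BAK1 (38.6 to 50.2), BCL2L1 (32.7 to 62.1) and BAX (30.5 to 39.7) followed with ranges that overlap one another. BAK1 was above BAX in every control group, while the place of BCL2L1 varied. BID stood at 12.1 to 18.6 CPM per kb. PMAIP1 stood at 6.64 to 8.10 CPM per kb in 5 of the 6 control groups and at 42.01 on the DDE plate. BBC3 (0.87 to 4.21) and BCL2L11 (0.81 to 2.31) were lower again, and their highest control means were also those of the DDE plate. BMF reached at most 0.21 and BCL2A1 at most 0.10 CPM per kb. BCL2A1 was not listed on the DDE plate and passed the low-count filter on plates 3153-AT and 3284-AT only, so 9 or 10 of the 10 genes could be tested on a plate.

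**Figure D1:**
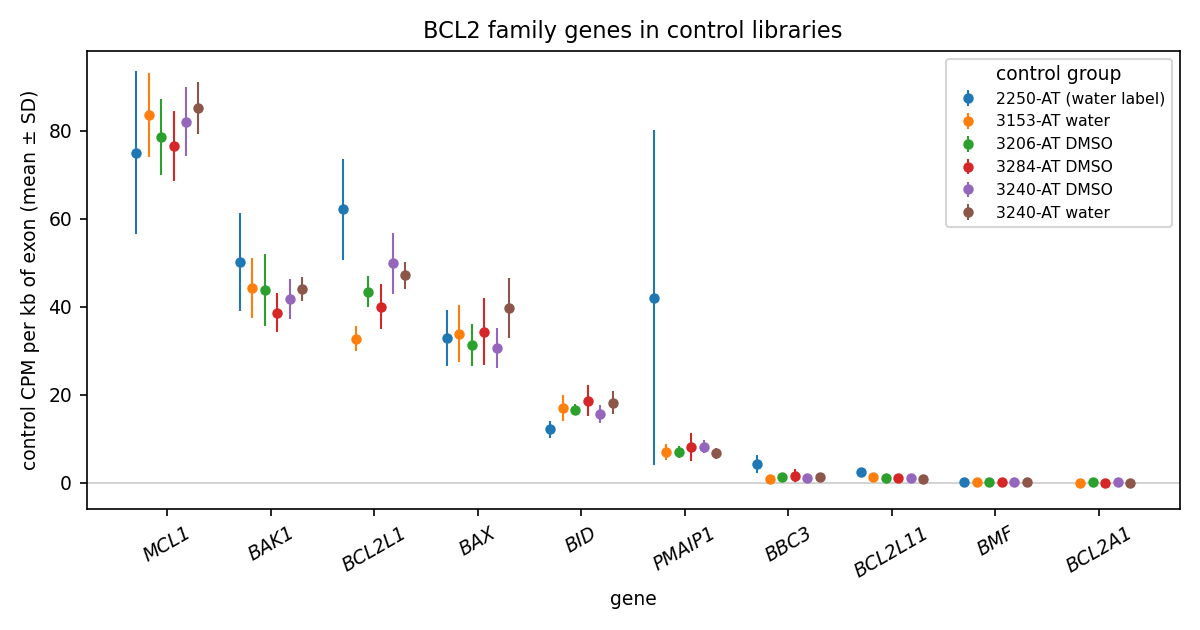
Control level of each BCL2 family gene in CPM per kilobase of exon (vertical axis), as the mean with SD error bars over the control libraries of each of 6 control groups (colours). MCL1 lies highest at 75.0 to 85.0 CPM per kb, and PMAIP1 on the DDE plate stands apart at 42.01 with a wide spread.

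At 25 µM, 14 of 199 tested pairs of gene and chemical differed from the plate's controls (edgeR quasi-likelihood test, Benjamini-Hochberg adjusted p under 0.05 over all genes of the plate), and 36 had an unadjusted p under 0.05. Over all genes, 4.85% of the tests at 25 µM passed and 12.4% had an unadjusted p under 0.05. The 14 pairs came from 5 of the 21 chemicals: thiram with 5 genes, arsenic and cadmium with 3 each, copper with 2 and lead with 1. These chemicals moved different shares of all genes, so each count is read against its own plate: 41.4% of genes passed in arsenic (23.2% higher, 18.2% lower), 25.9% in thiram (13.7% higher, 12.2% lower), 11% in cadmium (5.67% higher, 5.38% lower), 5.09% in copper (2.88% higher, 2.21% lower) and 3.85% in lead (2.15% higher, 1.7% lower). The 3 of 10 genes called in arsenic are near the share of all genes, while the 5 of 10 in thiram are above theirs. With 10 genes, among them BMF and BCL2A1 with few counts, these counts are no result about the family. PMAIP1 was the one family member called in all 5 chemicals, and each time it was higher. BAX, BMF and BCL2A1 were called in none.

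**Figure D2:**
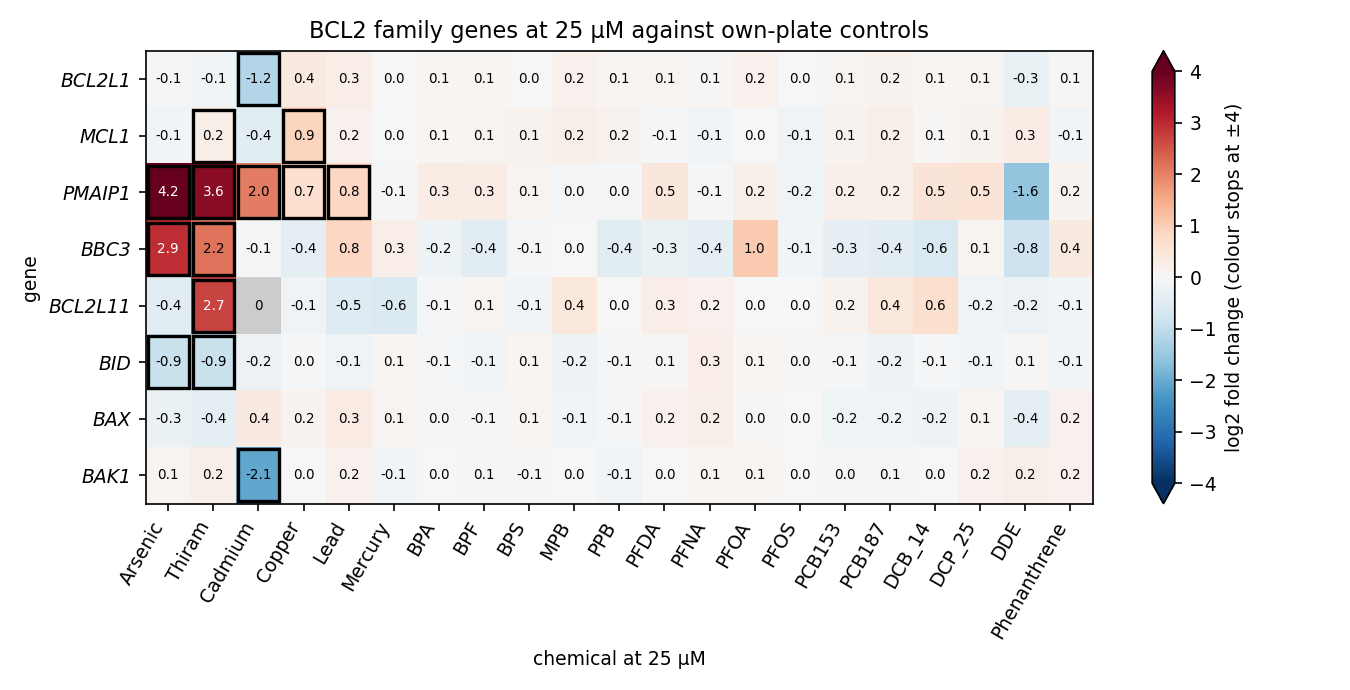
Log2 fold change of 8 BCL2 family genes (rows) at 25 µM against the controls of their own plate, for 21 chemicals (columns), with black frames around values that passed the test. The framed cells lie in the 5 leftmost columns, PMAIP1 is framed in each of those, and the grey cell marks BCL2L11 with 0 counts in both cadmium libraries.

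PMAIP1 encodes NOXA, a BH3-only protein that binds MCL1. In the 15 water controls of plate 3153-AT it ranged from 8.63 to 22.003 CPM with a median of 15.2. The 4 arsenic libraries at 25 µM stood at 289, 285, 237 and 246 CPM. None came near the controls, and the log2 difference was 4.15 ± 0.15 (SE), a 17.8-fold rise (n = 4 against 15, adjusted p = 9.8e-44). In thiram at 25 µM the libraries stood at 153, 135, 250.2 and 274 CPM, against 6.04 to 33.3 CPM with a median of 17.3 in the 15 DMSO controls. All 4 lay above every control, and replicates 3 and 4 above replicates 1 and 2. The log2 difference was 3.61 ± 0.19, a 12.2-fold rise (adjusted p = 1.7e-32). These are 1821 to 3086 counts per library in arsenic and 661 to 1270 in thiram. Whether the response to arsenic differed from that to thiram was not tested, since they sit on different plates with different solvents.

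Cadmium, lead and copper at 25 µM also raised PMAIP1. Both cadmium libraries at 25 µM, at 36.4 and 88.2 CPM, lay above every control, with a log2 difference of 2.04 ± 0.52 (4.12-fold, adjusted p = 0.0032). Only 29 and 63 counts stand behind them. Without replicate 2 the single remaining library gave 1.29 with adjusted p = 0.73, on the assumption that it varies like the other groups. The lead libraries stood at 24.0, 25.0, 27.4 and 30.3 CPM, also above every control, a log2 difference of 0.84 ± 0.18 (1.79-fold, adjusted p = 0.0012). In copper at 25 µM the values were 21.2, 26.6, 23.1 and 24.2 CPM, overlapping the highest control, with a log2 difference of 0.68 ± 0.18 (1.6-fold, adjusted p = 0.014). Without the libraries numbered 2 the copper call was lost, at 0.61 and adjusted p = 0.11. It was also lost in the higher-numbered libraries alone, at 0.55 and adjusted p = 0.43. Arsenic raised PMAIP1 more than cadmium at the same dose on the same plate, by 2.11 ± 0.40 on the log2 scale (adjusted p = 4.9e-05). In this direct comparison 8.56% of all genes passed, and the median log2 difference over all genes was 0.81.

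Below 25 µM PMAIP1 was not called in arsenic, thiram or cadmium. In arsenic at 2.5 µM the libraries stood at 17.3, 17.3, 25.5 and 35.2 CPM, the last 2 above the highest control, with a log2 difference of 0.63 ± 0.20 and adjusted p = 0.084. In thiram at 2.5 µM they stood at 18.9, 21.8, 21.4 and 20.3 CPM, all inside the control range, and the difference was 0.35 ± 0.24 with adjusted p = 0.97. Tested as a linear trend over the log doses, the slope per 10-fold dose was 1.13 ± 0.07 in arsenic (adjusted p = 5.1e-27), 1.03 ± 0.08 in thiram (adjusted p = 2.4e-20) and 0.56 ± 0.16 in cadmium (adjusted p = 0.016). Without the libraries numbered 2 the cadmium trend did not pass (adjusted p = 1.0). In these trends 29.7%, 18.5% and 8.96% of all genes passed. Copper was the one chemical with a PMAIP1 call below 25 µM: at 2.5 µM its libraries stood at 17.9, 23.7, 32.1 and 22.8 CPM, a log2 difference of 0.71 ± 0.18 (adjusted p = 0.0093), close to that at 25 µM and overlapping the controls. That call was lost in 4 of 14 alternatives, among them without the libraries numbered 3, at 0.55 and adjusted p = 0.21. The lower-numbered and the higher-numbered libraries alone did not give it either (adjusted p = 0.076 and 0.075).

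**Figure D3:**
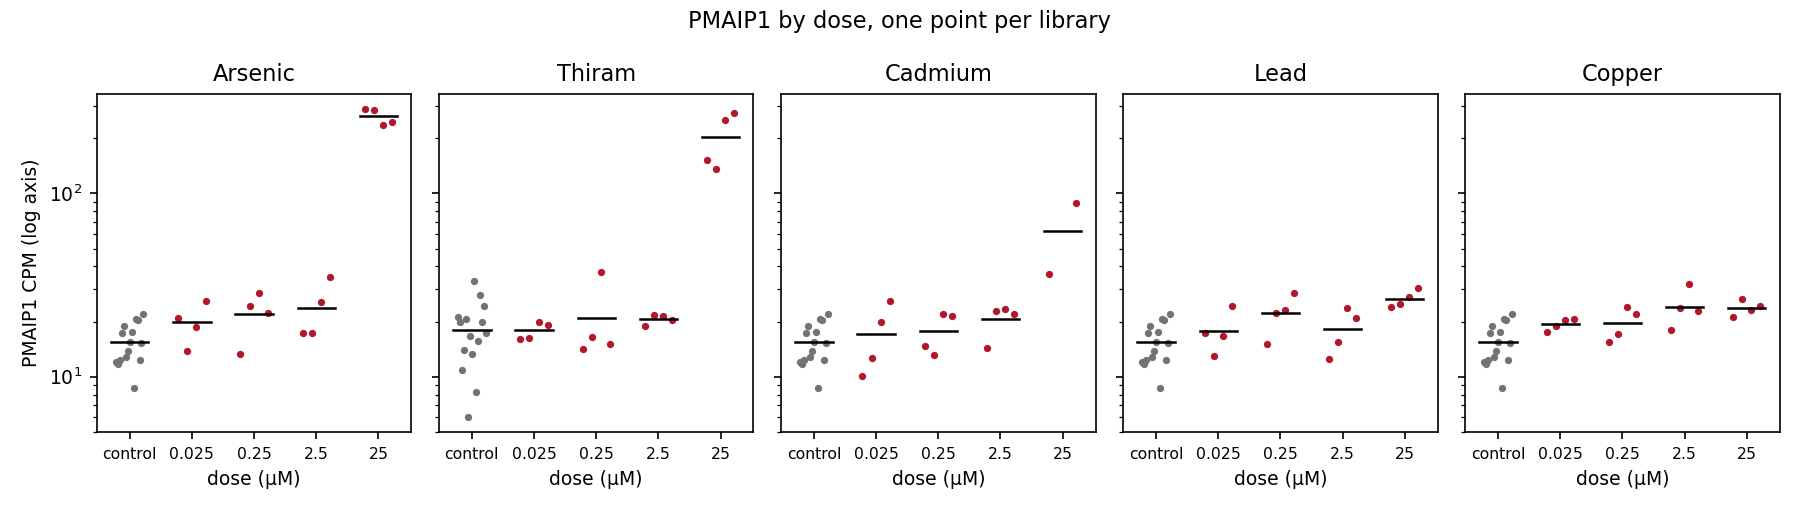
PMAIP1 in CPM on a log axis for every library of the 5 chemicals in which it was called at 25 µM and of their plate's controls (grey), with black bars at the means. Arsenic and thiram stay near the controls up to 2.5 µM and reach 237 to 289 and 135 to 274 CPM at 25 µM.

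BBC3 encodes PUMA, a BH3-only protein that binds all the restraining members and is a classical p53 target. It was barely expressed in the water controls, from 0 to 8.68 CPM with a median of 2.80. In arsenic at 25 µM its libraries stood at 30.6, 16.6, 35.1 and 24.7 CPM, all above every control, and the log2 difference was 2.94 ± 0.28 (7.67-fold, adjusted p = 2.3e-16). At 2.5 µM the values were 3.76, 2.03, 6.28 and 3.60 CPM, back within the control range. In thiram at 25 µM BBC3 stood at 10.3, 24.4, 38.2 and 20.3 CPM, and the DMSO controls at 0 to 18.3 CPM with a median of 3.88. The lowest thiram library lay below the highest control, and the log2 difference was 2.16 ± 0.38 (4.48-fold, adjusted p = 1.3e-06). The slope per 10-fold dose was 0.88 ± 0.12 in arsenic (adjusted p = 2.8e-09) and 1.002 ± 0.17 in thiram (adjusted p = 7.4e-07). In lead the 4 libraries lay at 4.93 to 8.08 CPM, a difference of 0.83 ± 0.34 that did not pass (adjusted p = 0.18), and in cadmium BBC3 rested on 1 and 4 counts. BBC3 lies at chr19:47220822-47232766 on the minus strand and overlaps a microRNA gene on the other strand, and PMAIP1, at chr18:59899948-59904306 on the plus strand, overlaps no annotated gene; the counting is not stated to use strand.

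BCL2L11 encodes BIM, a BH3-only activator that FOXO factors induce when growth factor signals fall. Thiram at 25 µM raised it in all 4 libraries, to 24.1, 39.7, 60.3 and 65.4 CPM, while the DMSO controls ran from 0 to 13.7 CPM with a median of 5.24. No thiram library overlapped the controls, and the log2 difference was 2.70 ± 0.28 (6.51-fold, adjusted p = 2.2e-14). At 2.5 µM the libraries stood at 6.86, 7.56, 7.09 and 9.23 CPM, inside the control range. The slope per 10-fold dose was 0.65 ± 0.10 (adjusted p = 4.1e-07), and in the libraries numbered 1 and 2 alone it did not pass (adjusted p = 0.26). Arsenic at 25 µM gave 13.1, 3.35, 2.47 and 4.95 CPM against 2.01 to 12.1 CPM in the water controls, a log2 difference of −0.45 ± 0.29 that did not pass (adjusted p = 0.23). So in the arsenic libraries PMAIP1 and BBC3 were called higher and BCL2L11 was not, whereas in thiram all 3 were; the difference between the chemicals was not tested. In cadmium BCL2L11 had 0 counts in both libraries, whose summed TMM-scaled size of 1.51 M allows up to 1.99 CPM (3 counts over the group), at least 4.19-fold lower than the 8.32 CPM of the pooled controls, yet the test did not pass (adjusted p = 0.28). The cadmium library with the other plate barcode held 14 counts, or 10.6 CPM, scaled together with the plate's other libraries. BCL2L11 lies at chr2:111119378-111168447 and overlaps MIR4435-2HG, a long noncoding RNA gene on the opposite strand.

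BID, at chr22:17734138-17774770 on the minus strand, links death receptors to mitochondria: caspase-8 cuts it into an active fragment. It overlaps MIR3198-1, a microRNA gene on the same strand. BID was the only BH3-only gene called lower than the controls in the main edgeR test. In arsenic at 25 µM it stood at 49.3, 52.7, 34.1 and 31.5 CPM, all below the water controls (53.9 to 93.6 CPM, median 77.8), a log2 difference of −0.90 ± 0.16, 1.87-fold lower (adjusted p = 1.1e-06). In thiram at 25 µM the values were 40.8, 51.3, 47.3 and 47.6 CPM against 46.3 to 108.8 CPM with a median of 84.9 in the DMSO controls, with some overlap at the lowest control. The log2 difference was again −0.90 ± 0.16 (1.86-fold lower, adjusted p = 2.9e-06). In the thiram libraries numbered 3 and 4, set against the higher-numbered controls alone, it was −0.63 with adjusted p = 0.11. The slopes per 10-fold dose were −0.23 ± 0.06 in arsenic (adjusted p = 0.0011) and −0.18 ± 0.06 in thiram (adjusted p = 0.018). The thiram slope was lost in 5 of 13 alternatives, at adjusted p up to 0.28, among them without the libraries numbered 1 (adjusted p = 0.17). At 2.5 µM BID lay at 56.7 to 92.6 CPM in arsenic and at 71.1 to 87.6 CPM in thiram, inside the control ranges. BMF, at chr15:40087890-40108892, is a BH3-only gene linked to loss of attachment and overlaps the antisense gene BMF-AS1. It was near the detection limit, with control means of 0.17 to 1.16 CPM, and gave no call in 84 comparisons. Its fitted folds rest on a handful of counts, for example 10 counts in 1 cadmium library and 0 in the other.

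**Figure D4:**
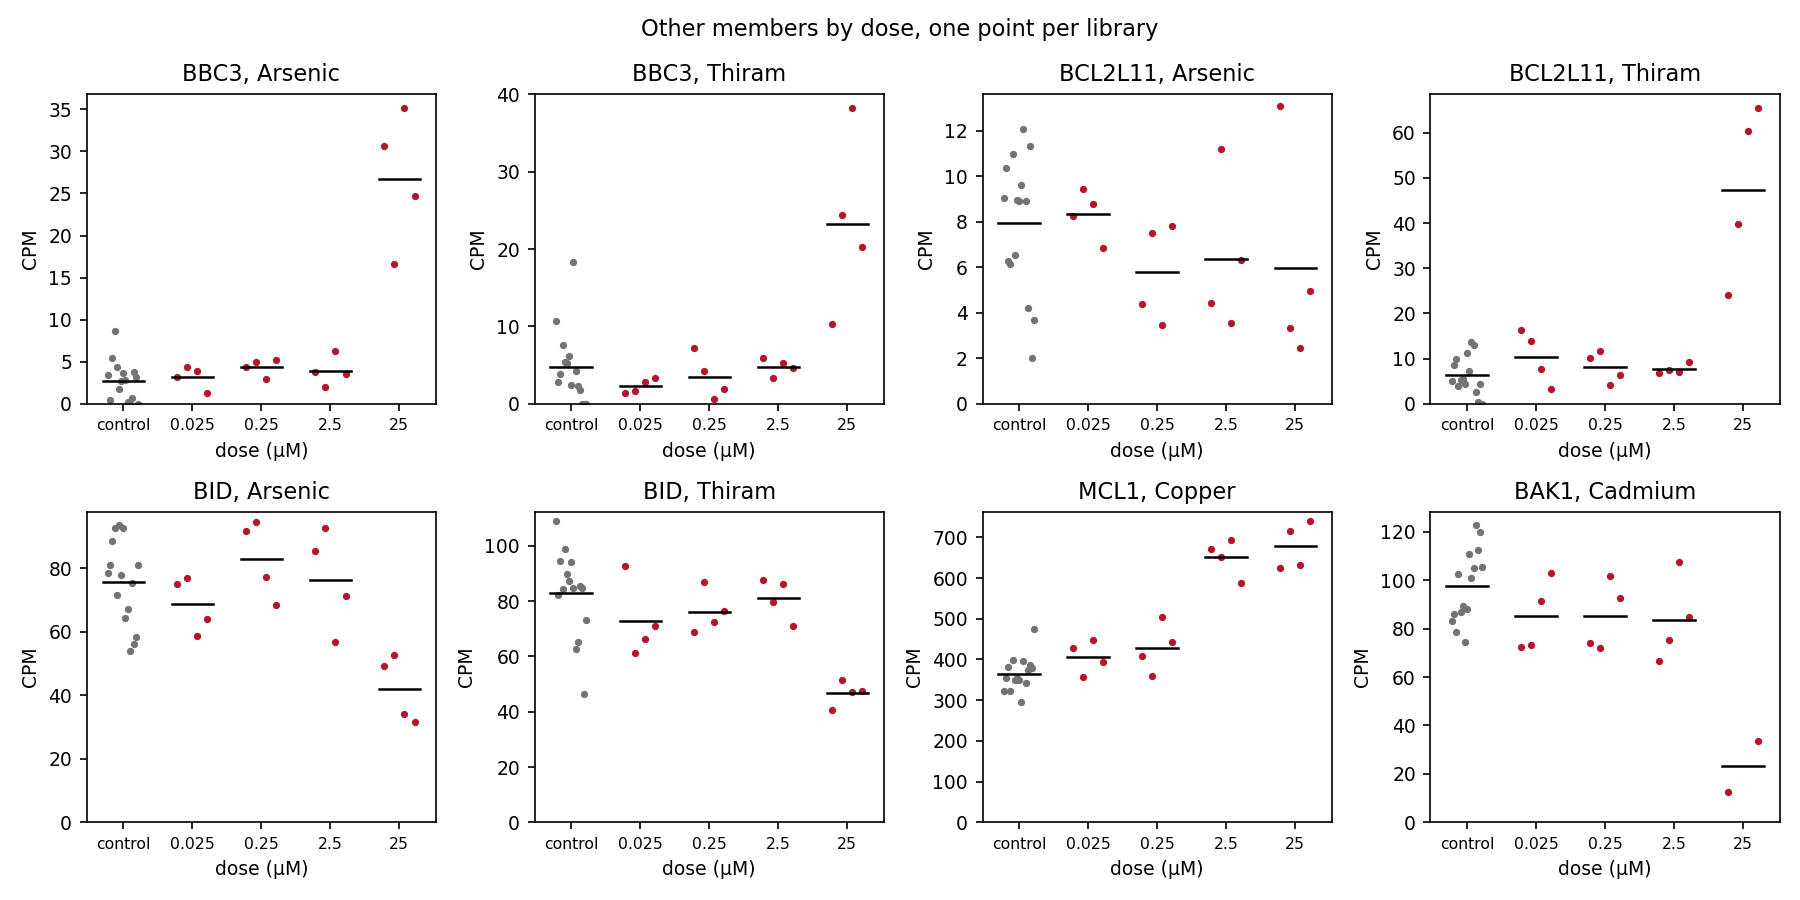
CPM of 5 further family members by dose, 1 point per library with the plate's controls in grey and black bars at the means, each panel with its own linear axis. BCL2L11 rises in thiram to 24.1 to 65.4 CPM but stays at 2.47 to 13.1 CPM in arsenic, and MCL1 is higher in copper at both 2.5 and 25 µM.

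Among the restraining genes, MCL1 rose in copper. MCL1, at chr1:150574551-150579738, is the short-lived member that NOXA binds. Its span overlaps ADAMTSL4-AS1 on the same strand, so strand would not separate reads of the overlap. The water controls ran from 297 to 474 CPM with a median of 355. Copper at 25 µM gave 625.1, 715, 632 and 740.0 CPM, and at 2.5 µM 670.3, 652, 693 and 587 CPM. All 8 libraries lay above every control, and both doses overlapped each other. The log2 differences were 0.90 ± 0.10 at 25 µM (1.87-fold, adjusted p = 4.6e-12) and 0.84 ± 0.10 at 2.5 µM (1.79-fold, adjusted p = 4.5e-10). At 0.25 µM the libraries stood at 409.7, 359.5, 504 and 442 CPM, 3 of them inside the control range. In copper at 2.5 µM, 3% of all genes passed, and MCL1 and PMAIP1 were the 2 family members among them. The split of those calls over all genes was 342 higher and 388 lower, and 270 and 469 with RLE scaling. The slope of MCL1 per 10-fold dose of copper was 0.28 ± 0.04 (adjusted p = 2.8e-07), where 1.71% of all genes passed.

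Smaller MCL1 differences were less stable. In thiram at 25 µM the values were 342, 432, 382 and 428 CPM against 286 to 400.6 CPM in the controls, a log2 difference of 0.25 ± 0.09 (adjusted p = 0.039) that was lost without the libraries numbered 2, 3 or 4 in turn (adjusted p = 0.27, 0.060 and 0.26). In MPB at 2.5 µM the values were 386, 355, 484 and 453 CPM against 272 to 404 CPM, a difference of 0.29 ± 0.07 (adjusted p = 0.033), with 0.915% of all genes passing. It was not found in replicates 1 and 2 alone (0.14, adjusted p = 1.0), and was lost without replicate 3 or 4. Over the arsenic doses MCL1 had a slope of −0.12 ± 0.04 per 10-fold dose (adjusted p = 0.021), while its 25 µM libraries, at 283 to 375 CPM, did not differ from the controls (−0.12 ± 0.10, adjusted p = 0.40). That slope did not pass with RLE scaling (adjusted p = 0.22) or DESeq2 (adjusted p = 0.17), nor without the libraries numbered 3 or 4 (adjusted p = 0.21 and 0.12). In thiram the slope was 0.10 ± 0.04 (adjusted p = 0.031), and it was lost without the libraries numbered 1, 2 or 4 (adjusted p = 0.096, 0.20 and 0.28).

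BCL2L1, which encodes BCL-XL and lies at chr20:31664452-31723989, was called once. Both cadmium libraries at 25 µM, at 20.1 and 78.4 CPM, lay below every water control (93.5 to 128 CPM). The median log2 difference over all genes in that comparison was −1.42. That of BCL2L1 was smaller, at −1.18 ± 0.41, with an adjusted p of 0.04995. This rests on 1 library: without replicate 1 the difference was −0.46 (adjusted p = 1.0). The cadmium library with the other plate barcode stood at 189.7 CPM, above every water control, and with it the difference was −0.02 (adjusted p = 0.99). In copper at 25 µM the libraries lay at 137 to 142 CPM, all above the controls, but the difference of 0.37 ± 0.13 did not pass (adjusted p = 0.089); with a term for low and high replicate numbers it was 0.31 ± 0.08 (adjusted p = 0.0034). BCL2L1 overlaps ABALON, an antisense gene, so reads of the pair cannot be told apart without strand. BCL2A1, an NF-κB target of blood cells at chr15:79960889-79971446, had 0 counts in all controls of plates 3153-AT and 3284-AT, and its highest count at 25 µM was 16, in 1 thiram library.

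Of the effectors, BAK1 was called at 25 µM in cadmium alone, and BAX in no chemical, though some alternatives given beside the results below did call it. BAK1, at chr6:33572547-33580293, overlaps GGNBP1 on the other strand. It stood at 12.6 and 33.6 CPM in the 2 cadmium libraries at 25 µM, below every water control (74.4 to 123 CPM, median 101), a log2 difference of −2.08 ± 0.44, 4.21-fold lower (adjusted p = 2.3e-04). Without replicate 1 it was −1.49 and did not pass (adjusted p = 0.12). With the library of the other plate barcode, at 80.9 CPM, it was −0.99 and did pass (adjusted p = 0.0050). BAK1 was higher in arsenic than in cadmium by 2.17 ± 0.44 (adjusted p = 2.0e-04), a difference that was also lost without replicate 1 (adjusted p = 0.13). Over all genes the median of arsenic against cadmium was 0.81 on the log2 scale. The slopes per 10-fold dose of cadmium were −0.58 ± 0.14 for BAK1 (adjusted p = 0.0017) and −0.39 ± 0.13 for BCL2L1 (adjusted p = 0.043). With the library of the other plate barcode those trends did not pass (adjusted p = 0.062 and 1.0), nor did they without replicate 1 (adjusted p = 0.24 and 0.98).

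The cadmium values at 25 µM as a group rest on 2 shallow libraries, of 1.43 and 1.45 M counts. The median log2 difference over all genes tested was −1.42 in cadmium, against 0.0014 in arsenic. That of the 10 family members in cadmium was −0.15, with BMF and BCL2A1, which rest on few counts, included. With RLE scaling the all-gene medians moved to −1.25 in cadmium and 0.14 in arsenic. The split of cadmium calls over all genes moved from 1378 higher and 1306 lower to 1597 and 971. In DESeq2 the all-gene medians were 0.071 in cadmium and 0.15 in arsenic, and the cadmium calls split into 2806 higher and 3785 lower. The sign of the cadmium median thus depends on the method. DESeq2 called 5 family members in cadmium (BAK1, BAX, BCL2L1, BCL2L11 and PMAIP1), where it called 41.7% of all genes it adjusted. The part of the low depth in these results was not tested.

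BAX, at chr19:48954815-48961798, differed between sets of controls. On plate 3153-AT it stood at 89.9 to 109 CPM in the 8 lower-numbered water controls and at 49.4 to 92.1 in the 7 higher-numbered ones, a log2 difference of −0.41 ± 0.13 for higher against lower numbers (adjusted p = 0.042, 5.42% of all genes). On plate 3284-AT the ranges were 89.4 to 126 and 62.2 to 91.7 CPM, a difference of −0.52 ± 0.14 (adjusted p = 0.035, 1.55% of all genes). BAK1 went the other way on plate 3153-AT, from 74.4 to 103 CPM in the lower-numbered controls to 101 to 123 in the higher-numbered ones (0.36 ± 0.11, adjusted p = 0.032). With RLE scaling neither BAX difference passed (adjusted p = 0.088 and 0.092). The higher-numbered controls are also the shallower ones, and the part of depth was not tested. With a term for low and high replicate numbers BAX was higher in lead at 25 µM by 0.35 ± 0.10 (adjusted p = 0.018), as it was in the lower-numbered libraries alone (0.38, adjusted p = 0.0087), against 0.33 without the term, which did not pass. In arsenic the lower-numbered libraries alone gave −0.38 (adjusted p = 0.019). On plate 3240-AT BAX was higher in the 4 water than in the 12 DMSO controls by 0.36 ± 0.11 (adjusted p = 0.042, 4.08% of all genes), a call lost without water control 39, 47 or 48. At 25 µM of PFOA the BAX libraries stood at 120.1 and 129 CPM in replicates 1 and 2 and at 77.7 and 88.9 CPM in replicates 3 and 4, while the water controls numbered 39 and 40 stood at 91.8 and 91.2 and those numbered 47 and 48 at 128 and 99.4 CPM. The PFOA effect thus differed between the replicate pairs by −0.90 ± 0.21 (adjusted p = 0.027, 0.202% of all genes), with 2 libraries behind each of the 4 means.

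On the DDE plate PMAIP1 varied among the controls themselves. The 2 controls numbered 9 and 16 stood at 230.4 and 223 CPM and the other 6 at 27.1 to 95.6 CPM. The DDE libraries at 25 µM stood at 47.2, 22.6, 25.3 and 26.7 CPM, and the log2 difference of −1.58 ± 0.52 did not pass (adjusted p = 0.056). Within the DDE doses the library numbered 1 (47.2 CPM at 25 µM), 8 (64.1 at 2.5 µM), 9 (32.4 at 0.25 µM) or 16 (93.3 at 0.025 µM) was the highest of its 4. A term for the numbers 1, 8, 9 and 16, the ends of the runs of 8 numbers, was chosen with earlier results of these data known and groups the libraries just described as high, so its calls are a description and no independent evidence. With it the PMAIP1 differences of DDE from the controls were −0.89 ± 0.25 at 0.025 µM (adjusted p = 0.018), −1.56 ± 0.27 at 0.25 µM (adjusted p = 1.1e-04), −1.39 ± 0.26 at 2.5 µM (adjusted p = 2.3e-04) and −1.48 ± 0.27 at 25 µM (adjusted p = 1.2e-04). The same fit called BBC3 at 0.25 µM (−1.08, adjusted p = 0.043) and BCL2L11 at 2.5 µM (−0.78, adjusted p = 0.044). It called 12.1%, 20.4%, 19.8% and 25% of all genes at the 4 doses, and no family member had a dose trend in DDE. The labelled solvents of DDE and its controls differ.

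In the other 16 chemicals at 25 µM no family member passed, and 13 of the 128 pairs of the 8 well-measured genes had an unadjusted p under 0.05, as had 7.49% of all tests in these chemicals. In BPA, BPF and BPS the 8 genes lay between −0.45 ± 0.41 (BBC3 in BPF) and 0.31 ± 0.21 (PMAIP1 in BPF). In MPB and PPB they lay between −0.41 ± 0.48 (BBC3 in PPB) and 0.42 ± 0.25 (BCL2L11 in MPB). Among PFDA, PFNA, PFOA and PFOS the extremes were −0.36 ± 0.37 (BBC3 in PFNA) and 1.04 ± 0.37 (BBC3 in PFOA, adjusted p = 0.51). In PCB153 and PCB187 they were −0.41 ± 0.42 (BBC3) and 0.41 ± 0.30 (BCL2L11), both in PCB187. In DCB_14, DCP_25, DDE and phenanthrene they were −1.58 ± 0.52 (PMAIP1 in DDE) and 0.63 ± 0.28 (BCL2L11 in DCB_14, adjusted p = 0.72). Mercury, on the plate with arsenic and cadmium, gave −0.59 ± 0.26 for BCL2L11 (adjusted p = 1.0) and at most 0.27 ± 0.38 (BBC3).

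At the lower doses the family was called rarely. At 2.5 µM, 3 of 199 pairs passed (MCL1 and PMAIP1 in copper, MCL1 in MPB), with 0.412% of all tests passing, and 25 pairs had an unadjusted p under 0.05, with 7.6% of all tests. At 0.25 µM 0 of 199 pairs passed in edgeR, with 0.0748% of all edgeR tests passing. There 26 pairs had an unadjusted p under 0.05, with 7.17% of all tests. DESeq2 called 2 pairs at this dose, and its share of all tests is not given. At 0.025 µM 0 pairs passed in edgeR, with 0.0104% of all edgeR tests passing. There 10 pairs had an unadjusted p under 0.05, with 6.36% of all tests. DESeq2 called 1 pair at this dose, again without a share of all tests given.

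Other genes of the death and stress pathways were counted at 25 µM from fixed lists. Over all genes, 41.4% passed in arsenic, 25.9% in thiram, 11% in cadmium, 5.09% in copper and 3.85% in lead. A list count near these shares is no result about the list. The caspase arm, with 8 of 16 called in arsenic and 4 of 16 in thiram, lay near them. Of 9 targets of the integrated stress response, in which ATF4 and DDIT3 act, 8 rose and 1 fell in both arsenic and thiram. In cadmium 6 rose and 1 fell, in copper 4 rose and 1 fell, and in lead 1 rose and 1 fell. In thiram ATF3 rose most (9.84 on the log2 scale) and DDIT4 fell (−1.96). The medians of this list were 4.27 in arsenic, 4.13 in thiram, 3.44 in cadmium, 0.22 in copper and 0.30 in lead. Of 12 p53 targets, 8 rose and 2 fell in arsenic, 5 rose and 1 fell in thiram, 2 rose and 2 fell in cadmium, and 3 rose in copper and in lead. In thiram GDF15, a secreted stress factor, rose by 2.33, SESN1 fell by 1.203, and MDM2, which encodes the ligase that limits p53, stood at −0.22 and was not called. Among 10 tested relatives of the family outside the 10 genes, 4 rose and 2 fell in arsenic, and in thiram 2 rose (BCL2L2, a restraining member, by 1.32 and BIK by 1.10) and BCL2L13 fell by 0.49. Of 16 genes of the caspase arm, 3 rose and 5 fell in arsenic and 2 rose and 2 fell in thiram, where XIAP, a caspase inhibitor, rose by 1.26 and BIRC5 fell by 0.61. Of 8 death receptor genes, 2 rose and 4 fell in arsenic and 3 fell in thiram, the largest and smallest falls being TNFRSF1A (−1.12) and TNFRSF10B (−0.39). Among 8 NF-κB targets in thiram, 3 rose, led by CXCL8 (2.86), and 3 fell, NFKBIA most (−2.33). Of 4 genes that turn over MCL1 protein, FBXW7, part of a ligase for MCL1, rose in thiram by 1.54 and USP9X, which removes ubiquitin from MCL1, by 0.51. Basal markers moved too: of 8, 2 rose and 6 fell in arsenic, 3 rose and 2 fell in thiram, 2 rose and 2 fell in cadmium, 4 rose and 1 fell in copper, and 1 rose and 1 fell in lead. Their part in the family's changes was not tested.

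Mean log2 CPM was compared over 90 groups, those of chemical and dose and the control groups, centred on each plate. The genes most like PMAIP1 were AL606500.1 (Pearson r = 0.915), PEA15 (0.910) and ADAMTS1 (0.909), out of 13839 genes. For BBC3 they were PPP1R13L (0.748), SAP18 (0.748) and UBE2R2 (0.731), and for BCL2L11 TENT5A (0.806), WDR47 (0.802) and CCNL1 (0.794). The groups of a plate share controls and libraries of unequal depth, and a few groups at 25 µM carry most of the variation, so these values are descriptions.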

How the data were processed

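RNA-seq libraries of MCF10A cells had been deposited singly by the authors, each as unnormalized whole-number counts by gene symbol. Per the submitters' processing notes the tools were FastQC, MultiQC, STAR and featureCounts on GRCh38; their versions, the annotation, strand handling and any gene filter were not stated there. Libraries were grouped by the labelled chemical and dose and by plate barcode. Each plate was fitted alone with edgeR 4.0.16 (R 4.3.3): filterByExpr by group (minimum count 10, minimum total 15), TMM scaling, quasi-likelihood F-test with 1 mean per group against the plate's controls, and Benjamini-Hochberg adjustment over all its genes. Trends over the 4 doses used linear contrast weights. CPM uses TMM-scaled library sizes (for the other-barcode cadmium library, those of a fit that includes it), standard errors are the log2 difference over the root of F, and exon lengths and overlaps come from GENCODE release 29. The test was checked on simulated data. Wells came from 1 line and passage, so p-values measure the spread between wells.

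The genes and lists were chosen with earlier results of these data known. All 10 genes were reported in each comparison; single libraries were given for called pairs, the 3 most similar genes for the 3 members with the largest called differences, and in each list the called genes with the largest and smallest log2 difference in the chemical with the most called members. MDM2 and BIK were named outside this rule, after their values were seen. Alternatives were RLE scaling, DESeq2 1.42.0, no filter, the 2 groups alone, a term for lower (1 and 2) against higher (3 and 4) replicate numbers, each of these sets alone, an end-position term (numbers 1, 8, 9 and 16 of the DDE plate), each dosed replicate number left out, shallow libraries (under 25% of the plate median) left out, joint adjustment over the 84 comparisons and the other-barcode cadmium library added. Same-numbered libraries were checked for pairing: every pair correlated above 0.1 in 2 of 20 chemicals (lead and mercury). The replicate block was fitted to the dose trends alone, where neither chemical had a called member with or without it. The PMAIP1 call in lead at 25 µM was not fitted with the block.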

Additional observations from a re-analysis of the deposited data

Results flagged for a closer look

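PMAIP1 in DDE at 0.025 µM had 1 library, number 16, at 93.3 CPM, set apart from the other 3 at 28.1 to 34.9 CPM by more than the 95% limit of Dixon's ratio. At 25 µM of DDE the library numbered 1, at 47.2 CPM, stood apart from the other 3 at 22.6 to 26.7 CPM in the same way. Chance gives such a flag in about 1 in 20 groups.

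The effect of PFOA at 25 µM on BAX differed between replicates 3 and 4 and replicates 1 and 2 by −0.90 on the log2 scale, by the interaction term of the model.

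The cadmium library at 25 µM with the barcode of plate 3284-AT entered none of the report's main tests. It stood above every water control of plate 3153-AT for BCL2L1 (189.7 CPM), PMAIP1 (42.3 CPM) and BAX (160.2 CPM), with library and controls scaled together.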

How the results depend on the processing

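Of 446 values of the 37 called pairs under the alternatives, 379 kept direction and call, 67 kept direction and lost the call and 0 reversed. In every alternative tried, 17 pairs kept the call. DESeq2 called 41.7% of all genes it adjusted in cadmium at 25 µM, against 11% in edgeR. Its other counts below are given without its share of all genes and are not read against it. The numbers of called family members that moved by more than 1.5 times are these, with the reported number first, and the cause was not tested. At 2.5 µM (3) it was 5 with the end-position term, 1 and 7 in the lower-numbered and higher-numbered libraries alone, and 1 to 6 with a replicate left out. At 0.25 µM (0) it was 1 with the 2 groups alone, joint adjustment, the number term or the lower-numbered libraries, 2 with DESeq2, no filter or the end-position term, 3 in the higher-numbered libraries and 0 to 1 with a replicate left out. At 0.025 µM (0) it was 1 with DESeq2, the end-position term, joint adjustment, no filter or the number term, 2 in the higher-numbered libraries and 0 to 1 with a replicate left out. For water against DMSO (1) it was 0 in the lower-numbered libraries and 0 to 1 with a water control left out, and for the numbered controls (3) it was 1 with RLE. For arsenic against cadmium (2) it was 7 with DESeq2, 4 with the other-barcode library and 1 to 3 with a replicate left out. For cadmium at 25 µM (3) it was 5 with DESeq2 and 1 to 3 with a replicate left out, for copper (2) 1 in the higher-numbered libraries and 1 to 2, for lead (1) 2 in the lower-numbered libraries or with the number term and 3 in the higher-numbered ones, and for thiram (5) 3 in the higher-numbered ones. For copper at 2.5 µM (2) it was 1 with DESeq2 or in the lower-numbered libraries and 1 to 3 with a replicate left out, and for MPB at 2.5 µM (1) 0 with the 2 groups alone or in the lower-numbered libraries and 0 to 1. For dose trends in cadmium (3) it was 6 with DESeq2 and 1 to 2 with a replicate left out, and in thiram (5) 3 with joint adjustment or in the lower-numbered libraries and 3 to 5.

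With the replicate number as a block, 13 pairs of gene and chemical had a dose trend, against 13 without it: BCL2L1 in cadmium no longer passed (adjusted p = 0.078) and BID in PFNA did (adjusted p = 0.031). Outside lead and mercury the libraries share only a number. Cadmium at 25 µM could not be fitted without shallow libraries. An alternative chosen after seeing the data, cadmium against the 7 higher-numbered controls alone, called 2 members, with BCL2L1 at an adjusted p of 0.064. BMF and BCL2A1 rest on too few counts for their folds to be read.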
